A study of Mus musculus with 23 samples.

Results

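Liver RNA of mice injected with EPDR1 was compared with liver RNA of mice given vehicle in the same batch, using 8 of the 23 libraries of the study: 4 of EPDR1 and 4 of vehicle, chosen by the group names in the count table and fitted alone. All mice were C57BL/6J, a common inbred strain, and the study asked which liver genes respond to recombinant secreted proteins picked as candidate endocrine factors of cardiometabolic disease. EPDR1 was injected 3 times, at 1 day intervals, at a dose of 1 µg for each g of mouse. The vehicle mice are labelled only as vehicle of batch 2, and what else batch 2 shared is not given in the sources used here; nor are sex, age, the time of killing or the source of the protein. Nothing in the labels ties a numbered sample to an animal of its own, and the p-values therefore speak only for variation among these libraries, some of which may be technical.

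EPDR1 (ependymin-related protein 1) is a glycoprotein with a lipid-binding fold that is found in lysosomes and is also secreted, and it has been described as a product of human brown fat cells. The liver answers many circulating signals in stages. Immediate early genes such as Jun and Klf6 are switched on directly by kinase signalling. Cytokines of the interleukin 6 family act through a shared receptor chain and STAT3, which induces feedback genes such as Socs3 and the acute phase proteins that hepatocytes release into plasma. The gene groups below follow those stages and then the metabolic programmes of the hepatocyte.

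Depth was 3005739 to 4180013 counts per EPDR1 library and 2517701 to 21892416 per vehicle library. Vehicle replicate 2 was 5.24 times as deep as the next library. In 18 pairs of replicates, FCN2 libraries included, no 2 libraries agreed within sampling noise (the lowest ratio of chi-square to its degrees of freedom was 7.96), so each library was taken as 1 sample. Albumin took 5.26% to 8.07% of counts after EPDR1 and 6.05% to 6.97% in vehicle, and all 15 hepatocyte markers were measured in a tissue labelled as liver. The mouse gene of the injected protein, Epdr1 (GRCm38 chromosome 13, 19591706 to 19619927, minus strand), had 0 to 2 counts per EPDR1 library and 0 to 5 per vehicle library, too few to test. An injected protein leaves no RNA, so that gene checks no label.

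Of 10058 genes tested, 2 rose after EPDR1 and 0 fell at an edgeR adjusted p under 0.05, the threshold for every call below. That is 0.0199% of genes. These were Arid5b, at 2.02 times its vehicle level, and Wsb1, at 2.27 times. An unadjusted p under 0.05 was reached by 849 genes, of which 444 (4.41% of all tested) were higher and 405 (4.03%) lower after EPDR1. The median log2 fold change over all genes was 0.01, with quartiles at -0.16 and 0.17 and a median standard error of 0.19. With DESeq2, 10 genes were called, and with limma-voom 0, with 959 at an unadjusted p under 0.05.

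**Figure D1:**
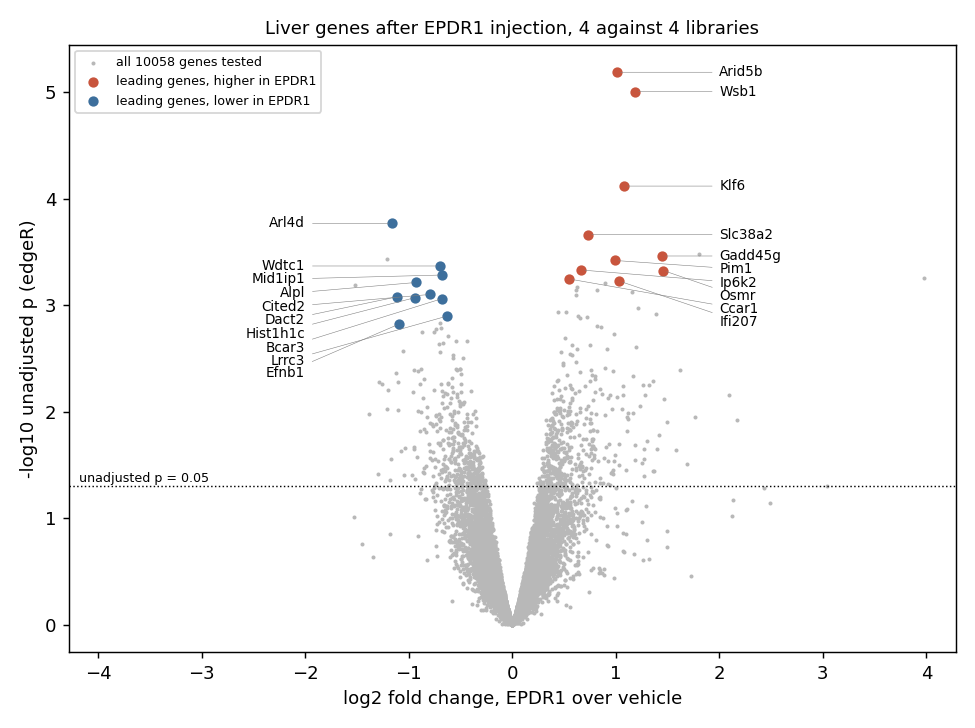
Each grey point is 1 of the 10058 genes tested, with the log2 fold change of EPDR1 over vehicle on the x axis and the unadjusted edgeR p on the y axis as its negative log10; coloured points are the 10 leading genes in each direction. Arid5b and Wsb1 stand highest, and the other leading genes lie in the upper edge of a cloud that is centred on 0.

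The 300 bases around the annotated starts of the called genes are shown because these are the genes that the comparison turns on. The windows run from 250 bases before to 50 after the start (RefSeq, GRCm38.p6), on the minus strand for both genes, at chr10:68278677-68278976 for Arid5b and chr11:79254646-79254945 for Wsb1. Capitals mark matches on either strand to TTCNNNGAA (the STAT core), TGACGTCA (the CREB site), TGANTCA (the AP-1 site), CACGTG (the E-box) or AGAACA (a glucocorticoid receptor half-site).
Arid5b: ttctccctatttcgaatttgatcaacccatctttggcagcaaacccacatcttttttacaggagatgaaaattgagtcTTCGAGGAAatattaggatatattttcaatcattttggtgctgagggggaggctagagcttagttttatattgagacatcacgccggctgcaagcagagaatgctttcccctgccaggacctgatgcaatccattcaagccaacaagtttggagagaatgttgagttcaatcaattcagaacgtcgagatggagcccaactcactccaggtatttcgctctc
Wsb1: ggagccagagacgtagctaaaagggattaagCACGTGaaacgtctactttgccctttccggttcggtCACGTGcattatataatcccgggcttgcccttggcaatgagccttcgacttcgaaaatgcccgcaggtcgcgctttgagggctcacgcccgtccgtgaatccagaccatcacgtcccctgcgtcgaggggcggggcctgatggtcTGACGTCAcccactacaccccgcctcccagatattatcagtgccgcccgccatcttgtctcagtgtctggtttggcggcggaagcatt
The Arid5b window holds 1 match, to the STAT core, which 8.3% of all 32851 promoter windows also hold. The Wsb1 window holds 2 E-boxes, found in 7.15% of windows, and 1 CREB site, found in 1.79%. Another annotated Wsb1 start, with its window at chr11:79242975-79243274, has 0 matches to all of these motifs and is not printed. Neither printed window has a match to the AP-1 letters (7.81% of windows) or the glucocorticoid half-site (19% of windows). These are matches of letters, not observed binding.

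Arid5b encodes a DNA-binding protein with an AT-rich interaction domain that takes part in fat cell formation and lipid metabolism (ENSMUSG00000019947, chromosome 10, 68092520 to 68278740, minus strand). It was at 131, 113, 122 and 169 CPM (counts scaled to library size) in EPDR1 replicates 1 to 4 and at 72.5, 58.5, 74.6 and 60.2 CPM in the vehicle replicates. The lowest EPDR1 library lay above the highest vehicle library. The means were 134 ± 24.9 and 66.4 ± 8.27 CPM (SD, n = 4 each), and Arid5b rose by 1.01 ± 0.15 on the log2 scale (± SE; edgeR adjusted p = 0.0493).

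Wsb1 encodes the substrate-binding subunit of a ubiquitin ligase, with WD repeats and a SOCS box (ENSMUSG00000017677, chromosome 11, 79239372 to 79254671, minus strand). It was at 96, 92, 66.3 and 133 CPM after EPDR1 and at 44, 37.4, 44.7 and 44.9 CPM in vehicle. The vehicle libraries lay close together and the EPDR1 libraries were spread over a range above them. The means were 96.7 ± 27.3 and 42.7 ± 3.58 CPM (SD, n = 4 each), and Wsb1 rose by 1.19 ± 0.18 (edgeR adjusted p = 0.0493).

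Both calls lay at the threshold. Leaving out 1 library moved the log2 fold change of Arid5b only between 0.88 and 1.08 and that of Wsb1 between 1.00 and 1.33. No gene was called without EPDR1 replicate 1 or without vehicle replicate 1, 2 or 4, and 1 without EPDR1 replicate 3 (Wsb1) or 4 (the predicted gene Gm43305, named after its values were seen). There were 12 calls without EPDR1 replicate 2, both genes among them, and 7 without vehicle replicate 3, where Arid5b was called and Wsb1 was not (edgeR adjusted p = 0.0589).

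All 8 genes that complete the leading 10 on the higher side had EPDR1 libraries above every vehicle library and an edgeR adjusted p from 0.254 to 0.31, so none passed in edgeR. DESeq2 called 5 of them, Klf6, Gadd45g, Slc38a2, Pim1 and Osmr, at an adjusted p from 0.00854 to 0.0321. Over all genes, 2.27% had every EPDR1 library above every vehicle library. Klf6, an early-response zinc finger factor, was at 34.3, 20.5, 28.5 and 26.5 CPM after EPDR1 and 10.5, 11.3, 15.6 and 16.7 CPM in vehicle (log2 1.08 ± 0.20). Gadd45g, a stress-induced regulator of growth arrest, was at 35, 16.8, 25.1 and 18 CPM against 5.98, 10.7, 12.4 and 5.1 CPM (1.44 ± 0.29). Pim1, a kinase induced by STAT factors, was at 49.1, 36.4, 48.4 and 30.9 CPM against 15.1, 23.8, 28.3 and 15.6 CPM (0.99 ± 0.21). In each of these 3 genes replicate 1 was the highest of the EPDR1 libraries. Osmr, the receptor chain for oncostatin M, an interleukin 6 family cytokine, was at 9.53, 6.72, 10.9 and 12.2 CPM against 1.67, 4.43, 5.59 and 2.04 CPM (1.46 ± 0.32). Slc38a2, an amino acid transporter, was at 152, 159, 241 and 167 CPM against 101, 118, 108 and 104 CPM (0.73 ± 0.15). The remaining genes were Ip6k2, an inositol phosphate kinase (0.67 ± 0.15), Ccar1, a transcriptional coactivator (0.55 ± 0.13), and Ifi207 of the interferon-inducible p200 family (1.03 ± 0.24). The p200 genes are close copies of each other and share reads, so the value of Ifi207 is uncertain; Pim1, Ip6k2 and Ccar1 overlap annotated genes on the other strand, as do Mid1ip1, Dact2 and Bcar3 below, and the reads were counted without strand.

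On the lower side 0 genes were called, and the 10 leading genes had an edgeR adjusted p from 0.31 to 0.398. Over all genes, 2.19% had every EPDR1 library below every vehicle library. Arl4d, a small GTPase, was at 5.72, 11, 4.9 and 8.84 CPM after EPDR1 and 17.2, 17.1, 14.4 and 18.4 CPM in vehicle (log2 -1.16 ± 0.23), and DESeq2 called it (adjusted p = 0.0199). Mid1ip1, which promotes the assembly of acetyl-CoA carboxylase into its active polymer, was at 15.5, 19.9, 16.7 and 17 CPM against 23.2, 31.2, 28.3 and 26.5 CPM (-0.68 ± 0.15). Cited2, a cofactor that binds the coactivators CBP and p300, was at 13.8, 12.5, 7.49 and 12.2 CPM against 19.1, 20.1, 18.4 and 22.4 CPM (-0.79 ± 0.19). The EPDR1 libraries of these genes did not reach the lowest vehicle library. Wdtc1, a WD-repeat protein of ubiquitin ligases linked to fat storage, stood at -0.70 ± 0.15, and Alpl, the alkaline phosphatase of liver and bone, at -0.93 ± 0.21. Hist1h1c, a linker histone, was at 38.6, 32.4, 27.9 and 36.4 CPM against 59.3, 96.8, 54.3 and 44.5 CPM (-0.94 ± 0.22), with the deep vehicle replicate 2 the highest. The other 4 were Dact2, a Wnt pathway regulator (-1.11 ± 0.27), the adaptor Bcar3 (-0.68 ± 0.16), the leucine-rich repeat gene Lrrc3 (-0.63 ± 0.16) and Efnb1, the ligand ephrin B1 (-1.09 ± 0.28).

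**Figure D2:**
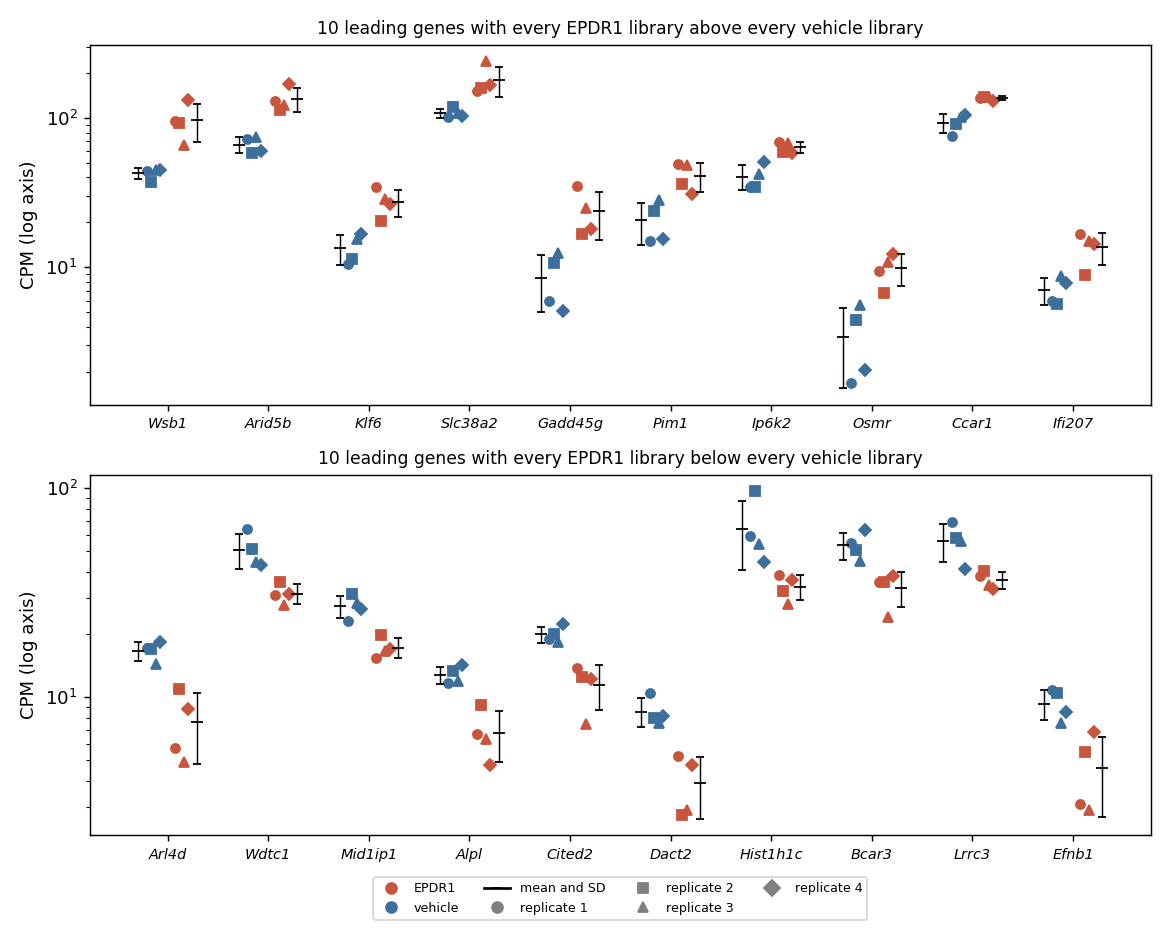
CPM on a log axis of the 10 leading genes in each direction, with a point for each EPDR1 and vehicle library (the shape gives the replicate number) and the mean and SD of each group (n = 4). The groups do not overlap in any of the 20 genes, which the choice of these genes fixed, and edgeR called Arid5b and Wsb1 alone.

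Small shared shifts were looked for in 69 gene lists, of which 58 had at least 5 measured members. By edgeR no list held a called gene: Arid5b and Wsb1 are in none of them, and every list below has 0 called members. DESeq2 called Klf6 and Gadd45g of the immediate early genes (Gadd45g also stands in the growth arrest list) and Pim1 of the cytokine feedback genes. Medians of the log2 fold change in the 58 lists ran from -0.21 to 0.72, with 7 above 0.2 and 1 below -0.2. Over all genes tested, 50.85% had a positive fold change, and 4.41% were higher and 4.03% lower at an unadjusted p under 0.05. The counts given for each list below stand beside those shares. Each library was also given 1 value per list, the median difference of its log2 CPM from the vehicle mean. On that scale the EPDR1 libraries spanned more than the vehicle libraries in 36 of 58 lists (median span 0.34 against 0.25). The vehicle libraries were measured from their own mean, and vehicle replicate 2 was far deeper. The 2 spans are therefore not on equal terms. In 1 of the 58 lists, the immediate early genes, all EPDR1 libraries lay above all vehicle libraries, and in 0 lists all lay below. Among single genes, 2.27% lay above in this way and 2.19% below. A list value is a median over several genes, so those shares give no rate for lists. Whether 1 list in 58 is more than chance gives was not tested. Lists share members, and in bulk liver RNA fewer cells of a type and less RNA per cell cannot be told apart.

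**Figure D3:**
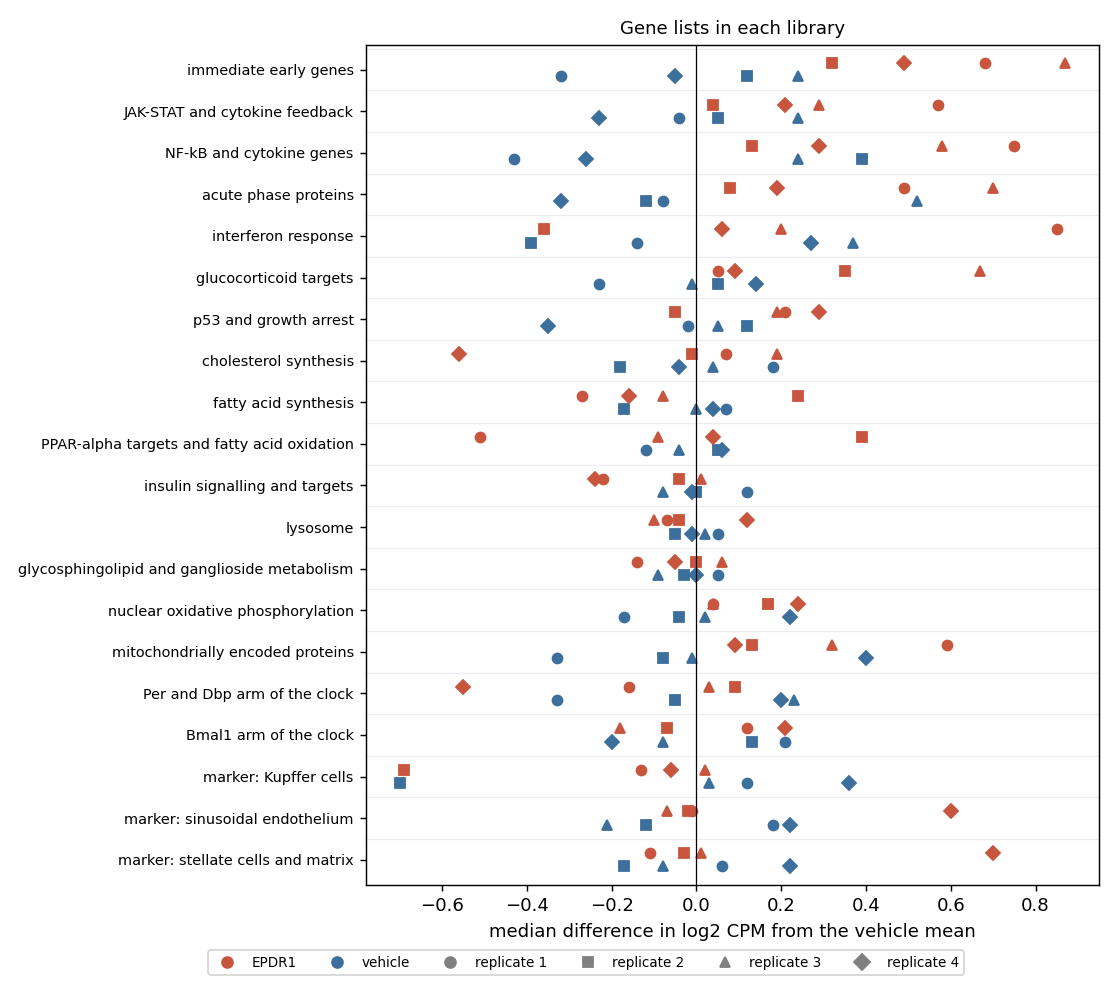
For 20 gene lists, each point gives the median over the list's measured genes of the log2 CPM difference from the mean of the vehicle libraries, in 1 EPDR1 or vehicle library (shape: replicate number). The EPDR1 points of the immediate early genes (0.32 to 0.87) lie to the right of the vehicle points (-0.32 to 0.24), while in the other lists drawn the groups overlap.

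Immediate early genes had the highest median of these lists, 0.72 over 19 measured of 31. At an unadjusted p under 0.05, 8 members were higher and 1 lower, and 16 had a positive fold change. The library values were 0.68, 0.32, 0.87 and 0.49 after EPDR1 and -0.32, 0.12, 0.24 and -0.05 in vehicle. Besides Klf6 and Gadd45g, Zfp36, which speeds the decay of cytokine mRNAs, was at 118, 78.9, 67.1 and 71.4 CPM against 40.4, 53.8, 51.5 and 58.8 CPM (log2 0.72 ± 0.18). Jund, an AP-1 subunit, was at 27.6, 22.6, 41.8 and 34.3 CPM against 12.9, 22.4, 18.8 and 16 CPM (0.81 ± 0.21), with no overlap. Jun, another AP-1 subunit, was at 9.53, 12.8, 20.2 and 16 CPM against 7.89, 10, 5.98 and 5.1 CPM (0.90 ± 0.26), and EPDR1 replicate 1 fell within the vehicle range. Fosl2, a Fos family partner of Jun, stood at 0.35 ± 0.25. Dusp1, a phosphatase that switches off MAP kinases, went the other way at 8.82, 15, 15 and 13.9 CPM against 19.4, 21.7, 19.2 and 28.2 CPM (-0.75 ± 0.20). The edgeR adjusted p of the genes given here that are not among the leading 20 ran from 0.367 for Zfp36 to 0.714 for Fosl2. On leaving out each library the median of the list stayed between 0.50 (without EPDR1 replicate 1) and 0.75. Jund was named after its values were seen.

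The JAK-STAT and cytokine feedback genes, 14 measured of 15, had a median of 0.19, with 4 higher and 0 lower at an unadjusted p under 0.05. Socs3, the STAT3-induced brake on interleukin 6 signalling, was at 69.1, 30.6, 59.9 and 28.6 CPM after EPDR1 and 5.98, 22.1, 26.7 and 6.8 CPM in vehicle. Its groups did not overlap, but they nearly met, and the fold change carried a wide error (log2 1.58 ± 0.55, edgeR adjusted p = 0.566). Pim3, a kinase related to Pim1, was at 53.6, 57.2, 53.6 and 29.6 CPM against 18.7, 30.9, 33.1 and 24.1 CPM (0.86 ± 0.22, edgeR adjusted p = 0.402). Socs2, a feedback gene of growth hormone, was at 39.6, 29, 20.5 and 92.5 CPM against 32, 8.5, 43.9 and 6.8 CPM (1.07 ± 0.77), with wide overlap. The list values ran from 0.04 to 0.57 after EPDR1 and from -0.23 to 0.24 in vehicle, and the median from 0.13 (without EPDR1 replicate 1) to 0.34 (without EPDR1 replicate 2) on leaving out each library.

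Acute phase proteins, the plasma proteins made in inflammation, had a median of 0.38, and 32 of 33 measured genes had a positive fold change. Over all genes, 50.85% were positive. Only 3 passed an unadjusted p under 0.05, all of them higher, and 4.41% of all genes were higher at that threshold. Itih3, an inhibitor chain that stabilises hyaluronan, was at 2510, 1390, 2380 and 2020 CPM against 1340, 1400, 1740 and 1170 CPM (log2 0.56 ± 0.19, edgeR adjusted p = 0.535). Serpina3n, a protease inhibitor, was at 708, 550, 1250 and 429 CPM against 373, 328, 537 and 301 CPM (0.94 ± 0.33, edgeR adjusted p = 0.566). Il6ra, the interleukin 6 receptor, stood at 0.53 ± 0.20. In each of these the groups overlapped. By library the list lay at 0.49, 0.08, 0.70 and 0.19 after EPDR1 and at -0.08, -0.12, 0.52 and -0.32 in vehicle, where replicate 3 stood apart. Leaving out each library gave medians from 0.26 (without vehicle replicate 4) to 0.52 (without vehicle replicate 3).

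Vehicle replicate 3 set the spread of Saa1 and Saa2, serum amyloid A genes that are among the most inducible acute phase products. Of the same family, Saa3 stood at log2 -0.282 and Saa4 at 0.625, both named after their values were seen. Saa1 was at 2170, 2210, 3920 and 2000 CPM after EPDR1 and at 445, 527, 4040 and 632 CPM in vehicle (log2 0.87 ± 0.82, edgeR adjusted p = 0.797). Saa2 was at 1130, 1360, 2460 and 1140 CPM against 158, 267, 2930 and 299 CPM (0.74 ± 1.03). Vehicle replicate 3 was the highest of the 8 libraries for both genes, and the other 3 vehicle libraries lay below all EPDR1 libraries. Without vehicle replicate 3, both were called (Saa1 at log2 2.27, edgeR adjusted p = 0.00458, and Saa2 at log2 2.66, edgeR adjusted p = 0.0361). Those values come from 4 against 3 libraries, a choice made after seeing which library was high, and Saa1 and Saa2 are near-identical copies that share reads. Beside these stood the neutrophil markers. S100a9, a calcium-binding protein of neutrophils that was named after its values were seen, was at 6.43, 5.5, 17 and 9.18 CPM after EPDR1 and 1.91, 3.38, 7.58 and 1.7 CPM in vehicle (1.47 ± 0.46). The summed level of the 13 neutrophil markers ran from 16.5 to 31.3 CPM after EPDR1 and from 4.21 to 18.7 CPM in vehicle, with 3 of them passing the filter and the granule genes Ngp and Ltf at 0 in all 8 libraries. The part of those cells in the acute phase values was not tested.

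The NF-kB and cytokine list had a median of 0.33 over 15 measured of 21, with 2 higher and 1 lower at an unadjusted p under 0.05. Nfkbiz, an inflammatory cofactor of NF-kB, was at 33.1, 19.3, 24.5 and 16.3 CPM against 10.3, 14.3, 18.8 and 12.2 CPM (log2 0.77 ± 0.23). Il1r1, the interleukin 1 receptor, was at 182, 97.5, 362 and 93.5 CPM against 53.8, 87.8, 98.9 and 43.2 CPM (1.37 ± 0.52), carried by replicates 1 and 3. Rela, the p65 subunit, stood at -0.34 ± 0.16 and Nfkbia, which holds NF-kB in the cytoplasm, at 0.28 ± 0.19. The edgeR adjusted p of these genes ran from 0.535 to 0.709. Without vehicle replicate 1 the median of the list was 0.11, and without vehicle replicate 2 it was 0.63.

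Interferon response genes, 37 measured of 41, had a median of 0.31 and a positive fold change in 35, and the median depended on single libraries of both groups. The library values were 0.85, -0.36, 0.20 and 0.06 after EPDR1 and -0.14, -0.39, 0.37 and 0.27 in vehicle. Rsad2 (viperin, an antiviral enzyme) was at 353, 15.3, 26.5 and 25.8 CPM against 10.5, 7.8, 21.9 and 16 CPM, and Ifit1, which binds viral RNA, at 77.7, 9.78, 18.1 and 16.3 CPM against 13.6, 5.26, 22.7 and 15.3 CPM. EPDR1 replicate 1 stood far above every other library in both genes. Mx2, an antiviral GTPase, was highest in the same library, at 43.8, 14.7, 25.1 and 16 CPM against 9.33, 10.3, 19.5 and 12.9 CPM (log2 1.03 ± 0.37, edgeR adjusted p = 0.566). Oas2 stood at 0.96 ± 0.42 and Ifit2 at 0.36 ± 0.33. Without EPDR1 replicate 1 the median of the list was -0.03, and without vehicle replicate 2, the lowest vehicle library, it was 0.07.

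**Figure D4:**
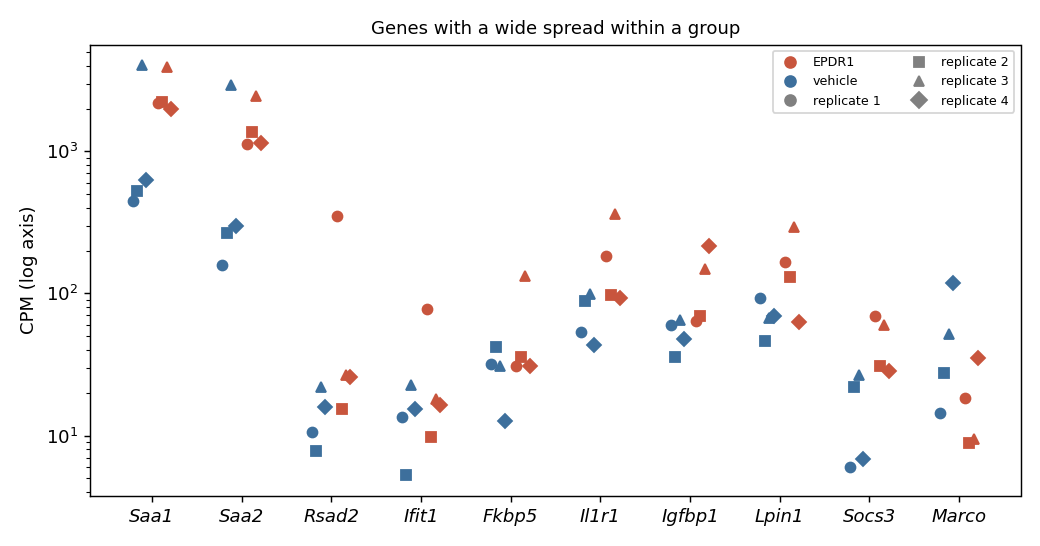
CPM on a log axis of 10 genes from the lists, with a point for each EPDR1 and vehicle library (shape: replicate number). The triangle of vehicle replicate 3 lies among the EPDR1 points for Saa1 and Saa2, the circle of EPDR1 replicate 1 stands alone for Rsad2 and Ifit1, and the triangle of EPDR1 replicate 3 stands alone for Fkbp5.

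Glucocorticoid targets, 18 measured of 19, had a median of 0.29 and a positive fold change in 12. At an unadjusted p under 0.05, 4 were higher and 1 lower. The largest shifts were those of Mt1 (log2 2.43, edgeR unadjusted p = 0.0524) and Mt2 (2.49, edgeR unadjusted p = 0.0718). Both also stand in the acute phase list and were named after their values were seen. Klf9, a zinc finger factor, was at 253, 190, 215 and 196 CPM after EPDR1 and 136, 140, 146 and 178 CPM in vehicle (log2 0.51 ± 0.14, edgeR adjusted p = 0.434), with no overlap. Fkbp5, the cochaperone of the glucocorticoid receptor, was at 31, 35.5, 132 and 30.6 CPM against 31.8, 41.7, 30.7 and 12.6 CPM, high in EPDR1 replicate 3 alone. Tsc22d3 (GILZ) stood at -0.31 ± 0.26, and Dusp1, given above, is the member that was lower. Without EPDR1 replicate 3 the median of the list was 0.12.

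The p53 and growth arrest list shares Gadd45g and Btg2 with the immediate early genes and Cdkn1a with the glucocorticoid targets. Its median was 0.24 over 13 measured of 17, with 6 higher and 0 lower at an unadjusted p under 0.05. Cdkn1a, the cell cycle inhibitor p21, was at 19.1, 12.2, 34.6 and 10.9 CPM against 9.09, 12.1, 3.99 and 5.1 CPM (log2 1.18 ± 0.42). Plk3, a stress-activated kinase, was at 28.4, 23.5, 40 and 47.3 CPM against 22.5, 15, 24.3 and 13.3 CPM (0.91 ± 0.24), and Gadd45a stood at 1.42 ± 0.50. Mdm2, the p53 target that degrades p53, was at 33.2 ± 3.75 and 32.8 ± 1.16 CPM (SD, n = 4 each; 0.02 ± 0.13). The edgeR adjusted p ran from 0.464 for Plk3 to 0.979 for Mdm2. EPDR1 replicate 2 had the lowest list value of its group (-0.05), below 3 vehicle libraries, and the median was 0.09 without EPDR1 replicate 1 and 0.11 without vehicle replicate 1.

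**Figure D5:**
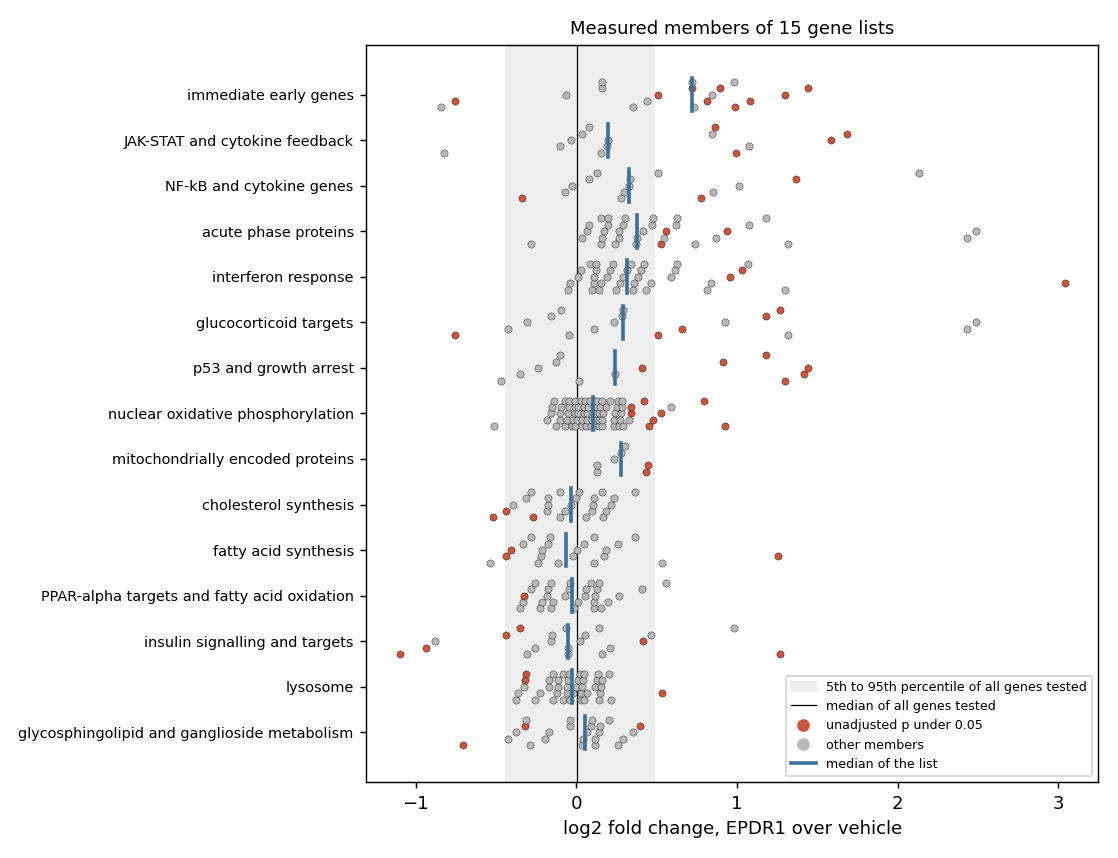
Each point is the log2 fold change of EPDR1 over vehicle of 1 measured gene of 15 lists; orange points have an unadjusted p under 0.05, blue bars give list medians, and the grey band spans the 5th to 95th percentile of all genes tested (-0.44 to 0.48). Members of the immediate early, cytokine and growth arrest lists reach beyond the right edge of the band, while those of the lipid and lysosome lists mostly lie inside it.

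Lipid metabolism showed medians near 0 with a wide spread between EPDR1 libraries. Of 25 cholesterol synthesis genes, 0 were higher and 3 lower at an unadjusted p under 0.05, with a median of -0.03. Tm7sf2, a sterol reductase, was at 55.5, 52.9, 42.6 and 37.4 CPM after EPDR1 and 70.8, 69.6, 56.7 and 57.8 CPM in vehicle (log2 -0.44 ± 0.15), and Insig1, the sterol sensor partner of SCAP, at 213, 173, 211 and 165 CPM against 234, 224, 228 and 231 CPM (-0.27 ± 0.12), both without overlap. Hmgcs1, which makes HMG-CoA, stood at 0.19 ± 0.25. The library values of the list were 0.07, -0.01, 0.19 and -0.56 after EPDR1, and replicate 4 lay below the vehicle range of -0.18 to 0.18.

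Fatty acid synthesis genes had a median of -0.07, with 1 of 22 higher and 2 lower at an unadjusted p under 0.05. Srebf1, the main transcription factor of this pathway, was at 28.1, 30.9, 15 and 23.1 CPM against 37.5, 27.7, 29.9 and 37.4 CPM (log2 -0.44 ± 0.20). Fads2, a desaturase, stood at -0.41 ± 0.18, Fasn at -0.18 ± 0.15 and Acaca at 0.00 ± 0.17. Lpin1, a phosphatidate phosphatase that also acts in the nucleus during fasting, was at 166, 130, 294 and 62.6 CPM against 92.8, 46.2, 67 and 69.3 CPM (1.26 ± 0.47, edgeR adjusted p = 0.576); EPDR1 replicate 4 lay within the vehicle range.

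Targets of PPAR-alpha, the fasting and fatty acid receptor, had 1 of 30 members at an unadjusted p under 0.05, Creb3l3 (-0.32 ± 0.15). The median was -0.03, yet the list value was -0.51 in EPDR1 replicate 1 and 0.39 in EPDR1 replicate 2, against -0.12 to 0.06 in vehicle. Those 2 libraries lay on opposite sides of all vehicle libraries. Ppara itself was at 43.4, 60.2, 53 and 37.7 CPM against 65.5, 56.2, 59.4 and 38.4 CPM. Cpt1a, the gate of mitochondrial fatty acid entry, stood at 0.06 ± 0.15, Acadvl at -0.35 ± 0.21 and Hadhb at 0.27 ± 0.18.

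The insulin signalling list had 2 of 21 members higher and 4 lower at an unadjusted p under 0.05 (median -0.05). Igfbp1, which insulin represses, was at 64.3, 69.4, 148 and 215 CPM after EPDR1 and 60.3, 35.4, 65.4 and 47.6 CPM in vehicle (log2 1.27 ± 0.44). Irs1, an insulin receptor substrate, was at 2.86, 5.81, 2.02 and 1.36 CPM against 8.61, 6.62, 3.99 and 6.12 CPM (-1.10 ± 0.37), a low level for these depths. Foxo1, the factor that insulin keeps out of the nucleus, was at 50.3, 49.8, 49.8 and 43.5 CPM against 30.8, 40, 25.1 and 48.6 CPM (0.41 ± 0.18). Each of these overlapped between groups, with an edgeR adjusted p from 0.535 to 0.58, and Insr, the receptor, stood at 0.16 ± 0.11.

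Since EPDR1 is itself a lysosomal protein that binds lipids, the genes of lysosomes and of glycosphingolipids were read as well. Of 42 lysosomal genes, 1 was higher and 2 lower at an unadjusted p under 0.05, with a median of -0.03. Ctsl, a lysosomal protease, was at 1070, 856, 1230 and 1070 CPM against 686, 575, 791 and 875 CPM (log2 0.53 ± 0.16, edgeR adjusted p = 0.535), with EPDR1 replicate 2 inside the vehicle range. Npc1, the cholesterol exporter of lysosomes, was at 54.3, 55.3, 44.4 and 56.4 CPM against 71.5, 59.5, 59.4 and 71.7 CPM (-0.32 ± 0.13), and Psap, the precursor of the saposins, stood at -0.32 ± 0.13. The main membrane proteins stood at -0.08 ± 0.13 (Lamp1) and -0.12 ± 0.12 (Lamp2). Of 24 genes of glycosphingolipid metabolism, 1 was higher and 2 lower. B4galnt1, which makes the core of complex gangliosides, was at 11.4, 13.4, 14.1 and 12.2 CPM against 25.8, 23.2, 18.4 and 14.3 CPM (-0.71 ± 0.19, edgeR adjusted p = 0.451). Ugcg, which starts the pathway, stood at 0.39 ± 0.16 and B4galt5 at -0.42 ± 0.34. The list values stayed between -0.14 and 0.12 in every library of both lists.

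Genes of the respiratory chain had small positive shifts. Of 76 nuclear genes of oxidative phosphorylation, 55 had a positive fold change, 8 were higher and 0 lower at an unadjusted p under 0.05, and the median was 0.11. Cycs, cytochrome c, was at 23.8, 18, 23 and 34.3 CPM against 9.09, 13, 17.2 and 19.4 CPM (log2 0.80 ± 0.24), and Ndufa5, a subunit of complex I, at 143, 131, 118 and 170 CPM against 72, 102, 101 and 129 CPM (0.47 ± 0.17). Atp5l, an ATP synthase subunit, was at 8.82, 5.2, 6.91 and 5.78 CPM against 2.39, 3.02, 4.79 and 5.1 CPM (0.92 ± 0.30). Ndufa1 stood at 0.12 ± 0.14 and Ndufa2 at 0.05 ± 0.16. Mitochondrial ribosomal proteins had 9 of 75 higher and 1 lower (median 0.10). Cytosolic ribosomal proteins (43 of 60 positive) and hepatocyte markers (12 of 15 positive) each had a median of 0.12. A median of this size was therefore not particular to the respiratory chain. From the mitochondrial genome 7 of 13 protein genes were measured, and these 7 all had a positive fold change (median 0.28). Among them were mt-Nd4, at 16800, 13300, 15100 and 17000 CPM against 7840, 11300, 11300 and 15500 CPM (0.43 ± 0.19), and mt-Nd6, at 0.45 ± 0.19. Vehicle replicate 1 was the lowest library for the nuclear list (-0.17) and the mitochondrial one (-0.33), while vehicle replicate 4 lay inside the EPDR1 range of both. Without vehicle replicate 1 the medians were 0.04 and 0.17. The nuclear median was 0.05 without EPDR1 replicate 4, and the mitochondrial one 0.43 without vehicle replicate 4.

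The clock lists had medians of -0.10 (11 genes of the Per and Dbp arm) and -0.05 (5 genes of the Bmal1 arm), and the library values of both overlapped between the groups. Per2, a core repressor, was at 6.19, 4.89, 4.9 and 3.74 CPM against 6.22, 9.69, 7.58 and 8.5 CPM (log2 -0.71 ± 0.24), and Nfil3, a repressor in the opposite phase, at 67.9, 79.5, 65.7 and 70 CPM against 44.7, 65.5, 51.5 and 28.6 CPM (0.55 ± 0.20). The edgeR adjusted p was 0.535 and 0.543. Per1 (0.23 ± 0.37), Arntl (-0.15 ± 0.21) and Clock (-0.19 ± 0.13) lay close to their errors. EPDR1 replicate 4 had the lowest value of the Per and Dbp arm, -0.55, against -0.33 to 0.23 in vehicle.

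Markers of other liver cells were read to see whether the samples differed in their makeup. Kupffer cell markers, of the resident macrophages, had a median of -0.21, and their summed level ran from 575 to 774 CPM after EPDR1 and from 689 to 1000 CPM in vehicle. Marco, a scavenger receptor, was at 18.3, 8.86, 9.51 and 35 CPM against 14.3, 27.4, 51.5 and 119 CPM (log2 -1.53 ± 0.79), and Adgre1, the macrophage antigen F4/80, stood at -0.66 ± 0.38. C1qa, the member with the smallest p, stood at -0.48 ± 0.26 (edgeR adjusted p = 0.629). Only 3 of 15 measured markers had a positive fold change, and 0 were higher and 0 lower at an unadjusted p under 0.05. Among those 3, Clec4f, a lectin of Kupffer cells, stood at 0.16 ± 0.33 and Vsig4, a complement receptor, at 0.08 ± 0.27. Replicate 2 was the lowest library of both groups, at -0.69 and -0.70, and leaving out each library moved the median between -0.45 (without vehicle replicate 2) and -0.01 (without vehicle replicate 4), with -0.06 without EPDR1 replicate 2. Sinusoidal endothelium and stellate cell markers both had a median of 0.15, and both were highest in EPDR1 replicate 4, at 0.60 and 0.70 against at most 0.01 in the other EPDR1 libraries. Lyve1, a hyaluronan receptor of sinusoids, was at 10.7, 5.5, 11.8 and 25.5 CPM against 7.17, 5.83, 7.18 and 8.5 CPM (log2 0.93 ± 0.37). In the endothelial list 14 of 17 genes had a positive fold change, with 2 higher and 1 lower at an unadjusted p under 0.05. Fcgr2b, the other higher one, stood at 0.36 ± 0.17. The lower one, Dnase1l3, a secreted nuclease, was at 14.5, 28.1, 17.9 and 22.1 CPM against 29.2, 24, 25.9 and 33 CPM (-0.44 ± 0.19). The scavenger receptors stood at -0.19 ± 0.20 (Stab1) and 0.18 ± 0.21 (Stab2). The mesenchymal gene Vim was at 26.7, 17.4, 25.1 and 37.7 CPM against 15.8, 14.4, 18.4 and 16 CPM (0.75 ± 0.20). Without EPDR1 replicate 4 the medians of the endothelial and stellate lists were -0.03 and -0.02, and leaving out each other library gave up to 0.23 and 0.27. Of 14 T and NK cell markers, 0 passed the filter on low counts. The part of these cells in the other results was not tested.

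EPDR1 was also set against FCN2 (ficolin-2, a complement lectin), given at the same dose and schedule in the same batch (4 libraries), which sets another injected protein beside it. Over 10033 genes, 0 were called (0% by edgeR), while 9.87% were higher and 8.74% lower in EPDR1 at an unadjusted p under 0.05, in all 1867 genes, and the smallest adjusted p was 0.122. DESeq2 called 103 genes and limma-voom 0. When all 16 libraries of batch 2 shared the estimate of the spread, edgeR called 422. Total counts of the FCN2 libraries ran from 2735871 to 7060707. This comparison uses the EPDR1 libraries of the one above, so the values are given side by side, each scaled within its own fit.

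For the called genes, EPDR1 and FCN2 livers did not differ beyond their spread. Arid5b was at 132, 62.8, 212 and 77 CPM in FCN2 replicates 1 to 4, with EPDR1 minus FCN2 at 0.08 ± 0.36 on the log2 scale (edgeR adjusted p = 0.927). Wsb1 was at 139, 67.6, 127 and 73.4 CPM (-0.14 ± 0.27, edgeR adjusted p = 0.801). In both genes FCN2 replicates 1 and 3 were as high as or higher than the EPDR1 mean and replicates 2 and 4 lower. The standard errors leave room for differences of either sign. Among the other leading genes, Pim1 (0.57 ± 0.20) and Osmr (0.64 ± 0.24) had the smallest p on the higher side, at an edgeR adjusted p of 0.17 and 0.195. On the lower side Bcar3 had the smallest p (-0.38 ± 0.17, edgeR adjusted p = 0.255), while Wdtc1 took the opposite sign (0.40 ± 0.20, edgeR adjusted p = 0.293). EPDR1 minus FCN2 was -0.10 ± 0.32 for Arl4d, -0.06 ± 0.33 for Alpl and -0.18 ± 0.25 for Cited2. By list, acute phase proteins had the largest median of EPDR1 minus FCN2 among the 20 described, 0.62, with 14 of 33 higher and 0 lower at an unadjusted p under 0.05. Interferon response genes stood at 0.38 (10 of 35 higher, 0 lower), nuclear oxidative phosphorylation at 0.20 (23 of 75 higher, 1 lower) and immediate early genes at 0.10 (3 of 20 higher, 1 lower). The median over all genes in this comparison was 0.01.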

How the data were processed

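Liver RNA was sequenced from 800 ng of total RNA per library with a KAPA kit, per the labels' protocols. Alignment used STAR 2.6.0c and GRCm38 (per the submitters' processing notes). Exonic reads of Ensembl 95 genes were counted by featureCounts 1.6.3, per the file headers. The values are raw gene counts as the authors deposited them. The recorded command sets no strand or pairing option, so reads were counted without strand and singly; both can blur overlapping genes. Of 54838 gene IDs, 54723 were matched to symbols. Exon lengths, another column of the deposited table, served for a length trend alone.

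Genes were kept by edgeR's filterByExpr (10058 for EPDR1 and vehicle), normalised by TMM, and tested by the robust quasi-likelihood method of edgeR 4.0.16 (R 4.3.3) on the 8 libraries compared. Called genes have a Benjamini-Hochberg adjusted p under 0.05. The fit was tested on simulated data. CPM values use the TMM-scaled library size; library values of a list use log2 CPM with a prior count of 2. The common dispersion was 0.0339 (EPDR1 alone 0.041, vehicle alone 0.0274).

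Gene lists, comparisons and groups were chosen with earlier results of these data known. Named genes are up to 12 called genes per direction, taken by fold change where the mean reached 1 CPM, the symbol was not a predicted one and the groups did not overlap, and filled to 10 per direction by the smallest p; of each described list, the 3 members with the smallest p and the first 2 measured; and Epdr1. Others are said to be named after seeing values. Same-numbered libraries were checked for shared deviations (r = -0.052, 0.178, 0.239 and 0.207 for numbers 1 to 4), which did not reach 0.1 in every pair, so the samples were not treated as paired. DESeq2 1.42.0, limma-voom (limma 3.58.1), DESeq2 size factors, other filters, wider sets of libraries, a replicate block, removal of an exon length trend and leaving out each library were tried as alternatives. The other 11 libraries of the series entered only those wider fits. Some genes covered by the naming rule are not reported here.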

Additional observations from a re-analysis of the deposited data

Results flagged for a closer look

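Of 254 groups of 4 libraries tested (each named gene and each described list, in EPDR1 and in vehicle), 15 had 1 library far from the others by Dixon's criterion. Chance flags about 1 group in 20, and genes of a list share their libraries.

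Vehicle replicate 3 was high for Saa1 (4040 CPM against 445 to 632 in the other vehicle libraries) and Saa2 (2930 against 158 to 299), and EPDR1 replicate 3 was high for Saa1 (3920 against 2000 to 2210) and Fkbp5 (132 against 30.6 to 35.5). EPDR1 replicate 1 was high for Rsad2 (353 CPM against 15.3 to 26.5) and Ifit1 (77.7 against 9.78 to 18.1), and low for Dusp1 (8.82 against 13.9 to 15). EPDR1 replicate 4 was high for the sinusoidal endothelium list (0.60 against -0.07 to -0.01 on the log2 scale) and the stellate cell list (0.70 against -0.11 to 0.01).

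The same library was low for Pim3 (29.6 CPM against 53.6 to 57.2), Foxo1 (43.5 against 49.8 to 50.3) and Ccar1 (130 against 137 to 139), the last 2 by small amounts. Fasn was high in EPDR1 replicate 2 (128 CPM against 80.5 to 86.7). The deep vehicle replicate 2 was low for Wsb1 (37.4 CPM against 44 to 44.9) and Insr (145 against 153 in each of the others).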

How the results depend on the processing

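The count of genes called between EPDR1 and vehicle was 2 with DESeq2 size factors, with at least 2 CPM in 4 libraries and with the exon length trend removed. It was 10 with DESeq2, 97 with no filter (20 of them outside the filtered set), 0 with limma-voom, 0 with all 16 libraries of batch 2, 0 with all 23 libraries and 0 with at least 5 CPM in 4 libraries, a filter added after seeing the data because the planned one kept 10683 genes, more than the main filter. Leaving out each library gave 0 to 12. For EPDR1 against FCN2 the count was 103 with DESeq2, 286 with no filter, 422 with all 16 libraries of batch 2 and 0 to 1 on leaving out each library. The cause of these differences was not tested. With the replicate number as a block, 5 genes were called against vehicle (Arid5b, Wsb1, Cish, Ppp1r3c and Gm42047; the last 3, Cish a cytokine feedback gene, were named after their values were seen) and 4 against FCN2 (6 and 6 with the length trend removed as well); 6 of 8 EPDR1 and vehicle libraries correlated best with their own number, and 2 of 8 EPDR1 and FCN2 libraries, as a hint from the data and not from the design.

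Acaca, at 0.00 with no sign to lose, ran from -0.10 to 0.11 over the settings tried. It was counted among the 98 of 107 named genes that never took the opposite sign, with Arid5b and Wsb1. The others were not called in any setting: Mdm2 (-0.03 with no filter, -0.03 to 0.08 on leaving out each library), Ndufa2 (-0.02 without the length trend, with the block or not), Reln (-0.02 with limma-voom, -0.04 with no filter, -0.01 with the replicate block, -0.07 without the length trend and -0.09 with both) and, on leaving out libraries, Ndufa2 (-0.03 to 0.18), Reln (-0.13 to 0.14), Cpt1a (-0.07 to 0.17), B4galt5 (-0.58 to 0.10), Per1 (-0.07 to 0.46), Clec4f (-0.06 to 0.46), Vsig4 (-0.19 to 0.25) and Stab2 (-0.05 to 0.36). Of 20 list medians, 19 moved by less than the spread between libraries in all settings, the exception being glycosphingolipid metabolism (-0.06 to 0.08). Several of those 19 still took both signs. Interferon response ran from -0.03 to 0.46, sinusoidal endothelium from -0.03 to 0.23 and stellate cells from -0.02 to 0.27. Cholesterol synthesis ran from -0.10 to 0.12 and PPAR-alpha targets from -0.21 to 0.13. So did insulin signalling (-0.10 to 0.01), the Per and Dbp arm (-0.21 to 0.01) and the Bmal1 arm (-0.15 to 0.03). At these depths, genes of a few CPM rest on few counts per library.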

Other observations

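Some genes outside the rule for named genes were picked after their values were seen and are given as values. Sox9, a transcription factor of bile duct cells, was at 18.1, 15.6, 19.9 and 14.6 CPM after EPDR1 and 6.22, 11, 10.8 and 7.82 CPM in vehicle (log2 0.90 ± 0.21, edgeR adjusted p = 0.31), with no overlap, while 5 cholangiocyte markers measured had a median of 0.18. Tiparp, a target of the aryl hydrocarbon receptor, was at 22.2, 15.3, 37.4 and 12.6 CPM against 8.85, 10.7, 11.6 and 6.8 CPM (1.19 ± 0.31, edgeR adjusted p = 0.455), and Ahr itself stood at 0.50 ± 0.17. The subunits of the enzyme that breaks down branched-chain keto acids stood on opposite sides. Bckdhb was at 93.4, 90.2, 94.8 and 87.7 CPM against 57.2, 59, 79.4 and 71 CPM (0.47 ± 0.13), and Bckdha at 16.4, 19.6, 18.4 and 15.6 CPM against 30.6, 27.4, 24.3 and 20.4 CPM (-0.57 ± 0.16), both with no overlap and an edgeR adjusted p of 0.466 and 0.49.

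Chaperone lists lay below 0. Heat shock genes had a median of -0.20 (4 of 21 positive) and chaperones of the endoplasmic reticulum -0.16 (5 of 28 positive). Their vehicle libraries were spread from -0.49 to 0.30 and from -0.19 to 0.32, with the deep vehicle replicate 2 the highest of both, and the EPDR1 libraries lay inside those ranges. Hyou1, a chaperone of the endoplasmic reticulum, was at 165, 118, 141 and 103 CPM against 203, 361, 181 and 152 CPM (-0.77 ± 0.26, edgeR adjusted p = 0.54).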
